A study of Homo sapiens with 2 samples.

Results

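The HDGF family, as taken here, is a set of 4 human genes, HDGF, HDGFL2, HDGFL3 and PSIP1, out of 58302 gene rows counted in each library. The genes were taken by symbol, as relatives that share the PWWP domain, and the set was selected on the count of HDGF, which was lower in the library labelled Ad-Bmal1. The comparison of HDGF below is therefore a description and supports nothing. RNA was sequenced from HK-2, a human kidney line of proximal tubule origin that was immortalised in culture. One group was exposed over 24 h to adenovirus with the coding sequence of Bmal1, the circadian transcription factor that pairs with CLOCK, and the other to adenovirus with GFP over the same 24 h. Both groups were grown in RPMI medium with 10% fetal bovine serum and antibiotics at passages 7 to 11, and neither was labelled as given cisplatin, the drug named in the series title. Each group had 1 library, so no difference has a replicate check and none can be given a p-value. An adenovirus does not integrate its gene, which is then made in any cell that takes it up, and the share of cells infected is not given.

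The founding member of the family, HDGF, was found as a growth factor that binds heparin, yet most of the protein resides in the nucleus. The PWWP domain at the front of each protein holds DNA and reads nucleosomes methylated at lysine 36 of histone H3, a mark laid down over transcribed genes. PSIP1, also called LEDGF, and HDGFL2 carry in addition an integrase-binding domain that docks chromatin regulators and, for PSIP1, the integrase of HIV. HDGFL3 is a short member known for binding tubulin and for its high level in brain.

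The promoters are shown for HDGF, the member with a large difference between libraries, and for HDGFL2, the most abundant member without one. BMAL1 with CLOCK binds the E-box CACGTG, so the windows were read for that motif, which is its own reverse complement, and for the GC box GGGCGG on both strands. Sequences are from RefSeq on GRCh38.p14, run 5′ to 3′ on the strand of the gene and stop at the first base of an annotated exon. Capitals mark the E-box CACGTG and the GC box, which reads GGGCGG on one strand and as CCGCCC on the other.
HDGF promoter (chr1:156751745-156751925, minus strand): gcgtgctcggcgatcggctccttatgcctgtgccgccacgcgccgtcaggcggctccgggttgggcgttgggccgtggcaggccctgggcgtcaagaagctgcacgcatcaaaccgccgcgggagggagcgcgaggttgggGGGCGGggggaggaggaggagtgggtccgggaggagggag
HDGFL2 promoter (chr19:4472047-4472286, plus strand): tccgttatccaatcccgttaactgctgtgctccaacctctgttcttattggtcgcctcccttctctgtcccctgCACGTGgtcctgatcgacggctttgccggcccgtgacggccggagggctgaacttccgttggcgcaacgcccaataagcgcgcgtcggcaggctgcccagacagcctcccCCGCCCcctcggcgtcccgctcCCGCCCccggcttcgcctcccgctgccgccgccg

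RefSeq gives 4 promoter windows of 300 bases for HDGF, 2 for HDGFL2, 1 for HDGFL3 and 2 for PSIP1, each from 250 bases before to 50 after a transcript start. CACGTG was in 1 of these 9 windows, that of HDGFL2 shown above, where it begins at position -176 relative to the transcript start. None of the 4 HDGF windows held it. The HDGF sequence above is part of 1 of its 4 windows, and the windows are not alike. The HDGF window farthest upstream, at 47% GC, held no GC box. Of all 35116 such windows in the table, 7.26% held CACGTG, and 45.0% held a GC box. These are matches of letters in a short window and say nothing of binding.

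Depth was 20051735 counts for the library labelled Ad-Bmal1, with 20780 genes detected, and 20032652 counts for the library labelled Ad-GFP, with 20709 detected. BMAL1 had 133 counts in the library labelled Ad-Bmal1 and 204 in the library labelled Ad-GFP, a scaled ratio of 0.667 (95% interval 0.532 to 0.834), so the targeted gene went against the label. The counts cannot tell RNA from the vector apart from that of the cell, and every direction below is that of the labels. Were the labels exchanged, each ratio and each rank by ratio would turn round. The keratin genes KRT8 and KRT19 and the kidney transcription factor gene PAX8 were present in both libraries. CDH1, the epithelial cadherin gene, was nearly absent, at 4 counts in the library labelled Ad-Bmal1 and 1 in the library labelled Ad-GFP. Of the genes that define the mature proximal tubule, LRP2 was at 0 counts in both libraries, AQP1 at 4 in each, and HNF4A at 0 in the library labelled Ad-Bmal1 and 1 in the library labelled Ad-GFP. Among markers of other cells, PTPRC, CD3E, VWF and KDR were at 0 in both libraries, and 1 of 7 blood cell and 1 of 5 endothelial genes reached 1 CPM in a library.

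HDGF was lower in the library labelled Ad-Bmal1, where it had 8953 counts, against 25119 in the library labelled Ad-GFP (ENSG00000143321, GRCh38 chromosome 1, 156742107 to 156766925, minus strand). After TMM scaling, which sets the libraries on one footing from the bulk of genes, this was 452 CPM (the count scaled to the depth of its library, exact 95% Poisson interval 443 to 461) in the library labelled Ad-Bmal1 and 1239 CPM (1224 to 1254) in the library labelled Ad-GFP. The ratio was 0.365 (exact 95% conditional interval 0.356 to 0.374), or 2.74-fold lower (2.68 to 2.81). These intervals cover counting error only and leave out the variation between cultures. In bulk RNA, fewer cells that express a gene and less of its RNA per cell cannot be told apart.

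HDGFL2, which encodes the PWWP protein closest to PSIP1 in domain make-up, had 4231 counts in the library labelled Ad-Bmal1 and 4108 in the library labelled Ad-GFP (ENSG00000167674, chromosome 19, 4472287 to 4502211, plus strand). Its level was 214 CPM (207 to 220.1) in the library labelled Ad-Bmal1 and 203 CPM (196 to 209) in the library labelled Ad-GFP, a ratio of 1.05 (1.01 to 1.10). That interval included 1 under total counts (1.03, 0.985 to 1.07), under DESeq2 size factors (1.04, 0.995 to 1.08) and when mitochondrial genes and the top 20 by abundance were left out of the totals (1.04, 0.996 to 1.09). The libraries thus differed by little in this gene, which is well covered in both.

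PSIP1, whose protein ties the MLL complex and the menin tumour suppressor to chromatin, had 595 counts in the library labelled Ad-Bmal1 and 603 in the library labelled Ad-GFP (ENSG00000164985, chromosome 9, 15464066 to 15511019, minus strand). It stood at 30.03 CPM (27.7 to 32.5) and 29.7 CPM (27.4 to 32.2) in the libraries labelled Ad-Bmal1 and Ad-GFP. The ratio of 1.01 (0.900 to 1.13) lay on the other side of 1, at 0.986, when scaled by total counts, so no direction is given. A counting interval this wide leaves differences of about 1.13-fold undetectable in this gene. PSIP1 makes a long and a short protein by alternative transcript ends, and counts per gene do not separate them.

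HDGFL3 was the least abundant member, with 196 counts in the library labelled Ad-Bmal1 and 246 in the library labelled Ad-GFP (ENSG00000166503, chromosome 15, 83112738 to 83208018, minus strand). This came to 9.89 CPM (8.56 to 11.4) in the library labelled Ad-Bmal1 and 12.1 CPM (10.7 to 13.7) in the library labelled Ad-GFP. The ratio was 0.815 (0.672 to 0.988), with an upper bound just under 1, and the CPM intervals of the libraries overlapped. Its difference was in the direction of that of HDGF but far smaller. HDGFL1, a further relative on chromosome 6, and the pseudogenes HDGFP1, HDGFL3P1 and PSIP1P1 had 0 counts in both libraries. A count of 0 allows up to 3 counts, which is 0.151 CPM for the library labelled Ad-Bmal1 and 0.148 CPM for the library labelled Ad-GFP.

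**Figure D1:**
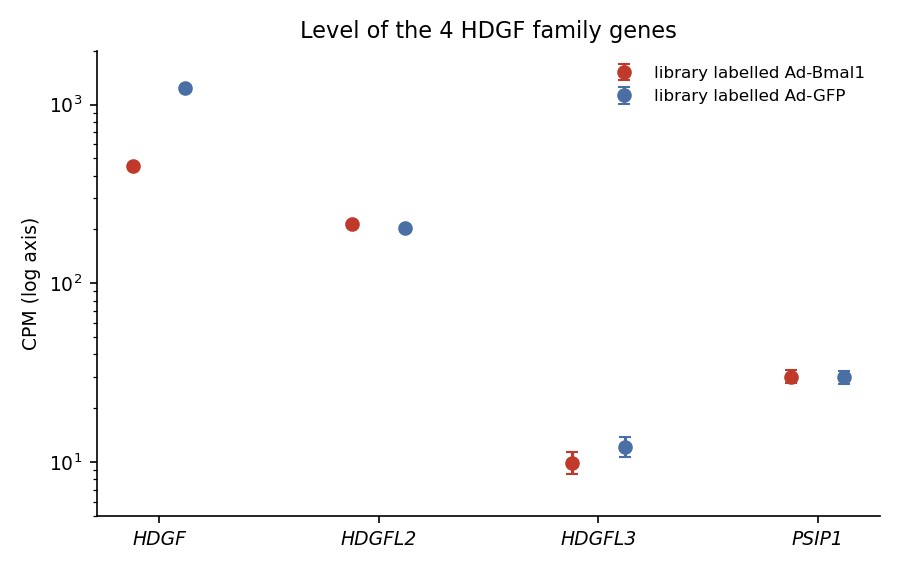
Level of each HDGF family gene in CPM (log axis) in the library labelled Ad-Bmal1 (red, left) and the library labelled Ad-GFP (blue, right). Points are single libraries and bars are exact 95% Poisson intervals, smaller than the point for HDGF and HDGFL2. HDGF stood at 452 and 1239 CPM, HDGFL2 at 214 and 203, PSIP1 at 30.03 and 29.7 and HDGFL3 at 9.89 and 12.1.

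Of the 4 members 1, HDGF, was at least 2-fold lower with an interval that excluded 1, and none was at least 2-fold higher. Over the 13231 genes that reached 1 CPM in at least 1 library, 1.74% were at least 2-fold lower and 1.13% at least 2-fold higher by the same rule. At 1.2-fold, HDGF and HDGFL3 were lower and no member was higher, beside 13.7% of all measured genes lower and 14.2% higher. The share in the set follows from how it was chosen, and nothing is read from it. The median log2 ratio of the members was -0.14, and that of all measured genes was 0.0032.

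Summed over the family, the library labelled Ad-Bmal1 held 13975 counts and the library labelled Ad-GFP 30076, a ratio of 0.475 (0.466 to 0.485). Without HDGF the sums were 5022 counts in the library labelled Ad-Bmal1 and 4957 in the library labelled Ad-GFP, a ratio of 1.04 (0.997 to 1.08). The difference in the family sum was thus that of HDGF. The other members added up to nearly the same level in both libraries.

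Levels of different genes can be compared only per length, and each CPM was divided by the kilobases of the longest coding transcript in GENCODE v29. On this scale HDGF was at 189.9 CPM per kb in the library labelled Ad-Bmal1 and 521 in the library labelled Ad-GFP. HDGFL2 was at 93.6 and 88.8 CPM per kb, PSIP1 at 8.86 and 8.77, and HDGFL3 at 0.777 and 0.953, in the libraries labelled Ad-Bmal1 and Ad-GFP. The order HDGF, HDGFL2, PSIP1, HDGFL3 was the same in both libraries. HDGF exceeded HDGFL2 by 2.03-fold in the library labelled Ad-Bmal1 and by 5.86-fold in the library labelled Ad-GFP.

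HDGF made up 64.8% of the family sum per kb in the library labelled Ad-Bmal1 and 84.1% in the library labelled Ad-GFP, a difference of -19.3 points. HDGFL2 made up 31.9% and 14.3%, PSIP1 3.02% and 1.42%, and HDGFL3 0.265% and 0.154%, in the libraries labelled Ad-Bmal1 and Ad-GFP. As a share of the members' counts with no length term, HDGF held 64.1% (exact 95% binomial interval 63.3 to 64.9) in the library labelled Ad-Bmal1 and 83.5% (83.1 to 83.9) in the library labelled Ad-GFP. The shares of the other members were larger in the library labelled Ad-Bmal1 although their own levels were close between libraries. The length used matters here, and with the median length of the annotated coding transcripts the per-kb share of HDGF was 43.9% in the library labelled Ad-Bmal1, below that of HDGFL2 at 52.6%, and 69.3% in the library labelled Ad-GFP.

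**Figure D2:**
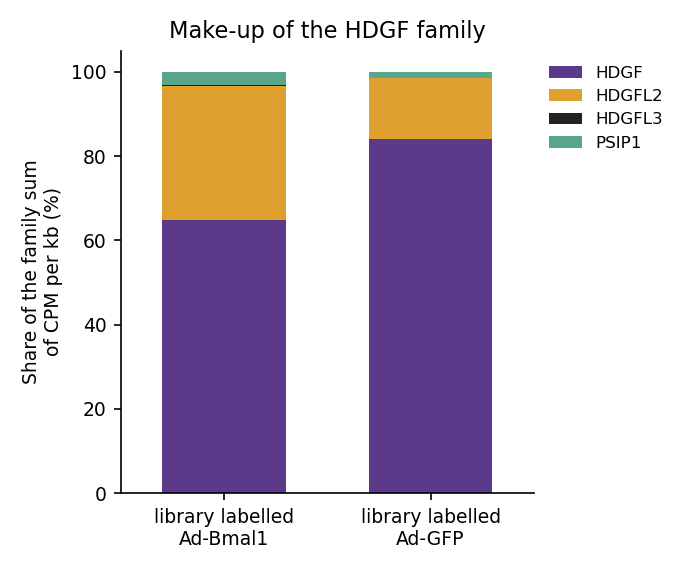
Make-up of the HDGF family as shares of the summed CPM per kb (%), in the library labelled Ad-Bmal1 (left) and the library labelled Ad-GFP (right), 1 library each. HDGF took 64.8% and 84.1% of the sum and HDGFL2 31.9% and 14.3%, while HDGFL3, at 0.265% and 0.154%, is too thin to see.

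Among all genes HDGF was one of the most abundant, at rank 349 by CPM in the library labelled Ad-Bmal1 and rank 90 in the library labelled Ad-GFP. Of the 365 genes with at least 0.5 times its mean of 845 CPM, HDGF had the lowest ratio. Just 2 of the 365, or 0.548%, were at least 2-fold lower, HDGF and TGM2, which encodes the protein-crosslinking enzyme transglutaminase 2. None of the 365 was at least 2-fold higher, and at 1.2-fold 9.32% were lower and 13.4% higher. Among the 2028 genes with a mean of at least 100 CPM, which include the 365, HDGF also had the lowest ratio. In all, 61 measured genes, HDGF included, were at or below its ratio. HDGF was chosen for its lower count, so these ranks are a description. By the drop in CPM it was the fifth of all genes, with a difference of -787 CPM, after EEF1A1, ACTB, TMSB4X and TGM2, genes chosen after their values were seen.

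The genes most like HDGF were sought among the 312 others with a mean CPM within 2-fold of its own, by the distance between log2 ratios, which with 2 libraries is the whole of the pattern. TGM2 came first, 0.14 from HDGF on the log2 scale, with 12889 counts in the library labelled Ad-Bmal1 and 32779 in the library labelled Ad-GFP. Its ratio was 0.402 (0.394 to 0.411), and its interval did not overlap that of HDGF. The next were CD44, the hyaluronan receptor, with 8267 and 14034 counts in the libraries labelled Ad-Bmal1 and Ad-GFP (0.603, 0.587 to 0.619), and CTSB, a lysosomal protease gene (0.670, 0.655 to 0.686). CXCL8, a neutrophil chemokine gene, had a ratio of 0.671 (0.660 to 0.682) and HMGN2, a nucleosome-binding protein gene, 0.679 (0.659 to 0.699). From the second gene on, the distance from HDGF was 0.72 or more, so TGM2 alone was close to it.

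**Figure D3:**
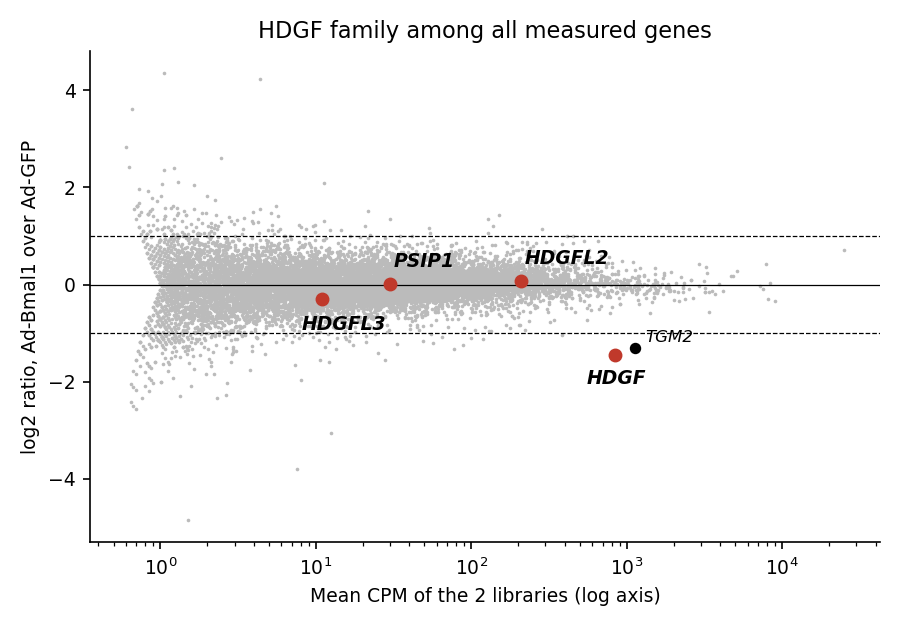
Log2 ratio of the library labelled Ad-Bmal1 over the library labelled Ad-GFP against the mean CPM of both (log axis), for the 13231 measured genes (grey), the 4 HDGF family genes (red) and TGM2 (black). Dashed lines mark 2-fold. HDGF lies at -1.46 and TGM2 at -1.31 among abundant genes of which 9.32% are at least 1.2-fold lower and 13.4% at least 1.2-fold higher, and the other members lie between -0.29 and 0.08.

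Reads that fit more than one gene could distort such counts, so the transcripts were compared. Of the 2331 stretches of 50 bases in the longest coding HDGF transcript, 5 were found in a transcript of another gene, the pseudogene HDGFP1, which had 0 counts in both libraries. HDGFL2 shared none with another gene. PSIP1 shared 200 of 3342 with SNAPC3 and the locus AL592293.2, and HDGFL3 shared 977 of 12684 with 105 other genes. HDGFL3 and PSIP1 counts are thus less certain than those of HDGF and HDGFL2 where the counting handled such reads in a way not given in the sources used here.

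Overlap along the genome was also read, since the strand setting of the counting is not given. PRCC, a gene on the opposite strand linked to RNA splicing, overlaps the HDGF locus, but none of the 3745 exonic bases of HDGF lies in a PRCC exon. PRCC had 2142 counts in the library labelled Ad-Bmal1 and 1822 in the library labelled Ad-GFP, a ratio of 1.203 (1.13 to 1.28), in the direction opposite to HDGF. PLIN4, which coats lipid droplets, shares 32 of 4299 exonic bases with HDGFL2 on the opposite strand and reached 37 and 59 counts in the libraries labelled Ad-Bmal1 and Ad-GFP. SNAPC3, a subunit of the complex that starts small nuclear RNA genes, shares 140 exonic bases with PSIP1 and had a ratio of 0.925 (0.786 to 1.09). TM6SF1 shares 1032 of 16253 exonic bases with HDGFL3 and had 0 counts in the library labelled Ad-Bmal1 and 2 in the library labelled Ad-GFP.

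The neighbours of HDGF did not share its difference. The 12 measured genes counted here start within 250 kb of the HDGF start that GENCODE annotates, which is upstream of all 4 RefSeq starts. Their ratios ran from 0.754 to 1.35, and none was 2-fold lower, beside 1.74% of all measured genes. Of the 12, 2 were at least 1.2-fold lower and 2 at least 1.2-fold higher, beside 13.7% of all measured genes lower and 14.2% higher. The lower were METTL25B (0.754, 0.644 to 0.882) and SH2D2A, a T-cell adaptor gene (0.805, 0.685 to 0.945), and the higher were PRCC and GPATCH4 (1.35, 1.18 to 1.55). MRPL24, a mitochondrial ribosomal protein gene near the end of HDGF, had 2078 counts in the library labelled Ad-Bmal1 and 2072 in the library labelled Ad-GFP (1.03, 0.965 to 1.09) and was chosen after its values were seen. The median log2 ratio of the 12 was -0.10.

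Around HDGFL2 the 12 measured neighbours had ratios from 0.621 to 1.25, with 4 at least 1.2-fold lower and 1 higher. Over all measured genes 13.7% were lower and 14.2% higher by that rule. SEMA6B, a membrane semaphorin gene, was at 0.621 (0.560 to 0.688), STAP2 at 0.728 (0.650 to 0.815) and CHAF1A, a subunit of the chromatin assembly factor, at 1.25 (1.18 to 1.31). The 5 neighbours of HDGFL3 all had ratios above 1, from 1.02 to 1.49, unlike HDGFL3 itself, while 49.6% of all measured genes were below 1. Of these HOMER2 (1.49, 1.39 to 1.60) and BNC1, an epithelial zinc finger gene (1.36, 1.14 to 1.63), were at least 1.2-fold higher, beside 14.2% of all measured genes. The intervals of the other neighbours of HDGFL3 included 1. PSIP1 had 2 measured neighbours, and neither was past 1.2-fold with an interval that excluded 1.

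**Figure D4:**
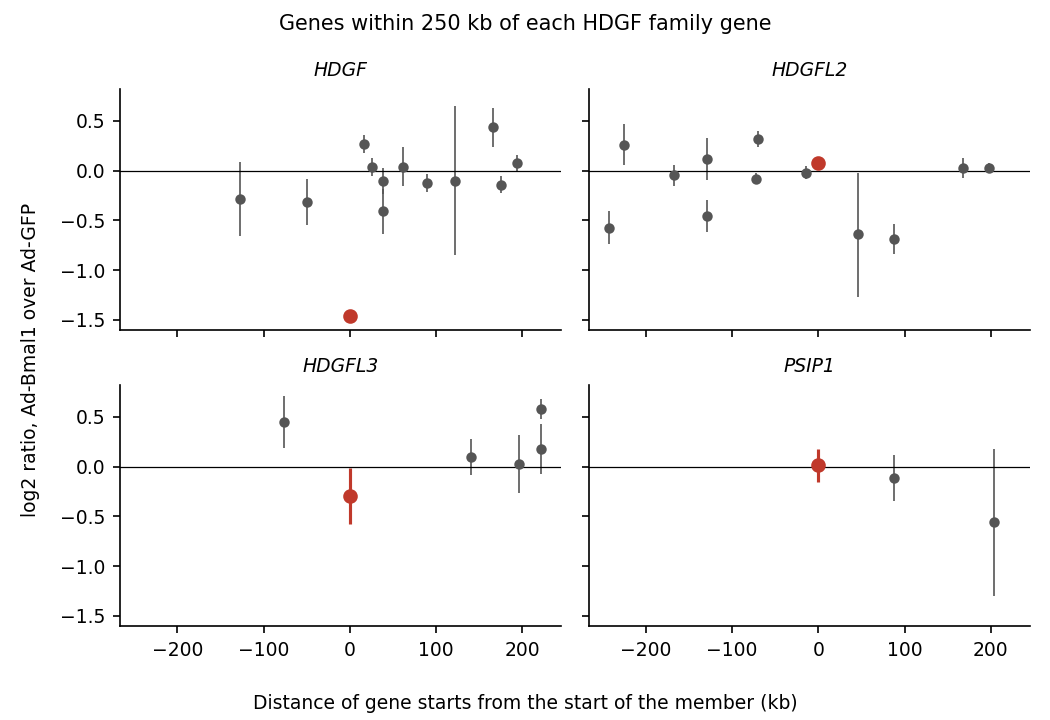
Log2 ratio of the library labelled Ad-Bmal1 over the library labelled Ad-GFP for measured genes (grey) against the distance of their start from that of each HDGF family gene (kb, positive downstream on the strand of the member). Red points are the members, and bars are exact 95% counting intervals. HDGF at -1.46 stands below its 12 neighbours, whose median is -0.10.

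Other genes of the PWWP domain had ratios on both sides of 1. Of 19 listed genes 16 reached 1 CPM in a library, 12 with ratios above 1 and 4 below, beside 49.6% of all measured genes below. The median log2 ratio was 0.20 beside 0.0032 over all measured genes. At 1.2-fold 7 of the 16 were higher and 1 lower, beside 14.2% of all measured genes higher and 13.7% lower. Once a trend of the ratio on transcript length was removed, 5 were higher and 1 lower. None passed 2-fold, which 1.13% of all measured genes did upwards and 1.74% downwards. The most abundant was NSD2, which methylates lysine 36 of histone H3, with 6429 and 6660 counts in the libraries labelled Ad-Bmal1 and Ad-GFP (0.988, 0.954 to 1.02). DNMT3B, a DNA methyltransferase gene, reached 4125 and 2652 counts in the libraries labelled Ad-Bmal1 and Ad-GFP (1.59, 1.52 to 1.67). MSH6, a mismatch repair gene, had a ratio of 1.06 (0.999 to 1.13), which was 0.992 once a trend of the ratio on transcript length was removed.

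Enzymes that write or erase methylation at lysine 36 of histone H3, the mark PWWP domains read, had a median log2 ratio of 0.06 over 15 measured genes, and -0.05 with the length trend removed. None passed 2-fold, which 1.13% of all measured genes did upwards and 1.74% downwards. Of the 15, 5 were at least 1.2-fold higher and none was lower by that rule. The shares over all measured genes were 14.2% higher and 13.7% lower. After NSD2 the most abundant were KDM4B, a demethylase gene (1.13, 1.06 to 1.21), and SMYD2, a methyltransferase gene, with 1281 counts in the library labelled Ad-Bmal1 and 1533 in the library labelled Ad-GFP (0.855, 0.793 to 0.921). NSD1, NSD2 and NSD3 are in both this list and that of PWWP genes. Among 7 proteins that bind the integrase-binding domain the median was 0.32, with 4 at least 1.2-fold higher and 1 lower, against the same 14.2% and 13.7%. MEN1, which encodes menin, reached 1073 and 850 counts in the libraries labelled Ad-Bmal1 and Ad-GFP (1.29, 1.18 to 1.41), and POGZ, a zinc finger gene, had a ratio of 1.25 (1.13 to 1.38). CDCA7L, a partner of PSIP1, went the other way at 0.751 (0.678 to 0.832). KMT2A, the MLL methyltransferase gene, had the highest ratio at 1.95 (1.72 to 2.22) and was chosen after its values were seen, and it was at 1.72 with the length trend removed.

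Elongation factors carry RNA polymerase through nucleosomes, as HDGFL2 and PSIP1 are known to do, and their list here also holds genes of the pausing factor NELF. The median log2 ratio of the list was 0.02 over 18 genes, of which IWS1 is also among the partners above. At 1.2-fold 2 were higher and 3 lower, near the shares of 14.2% and 13.7% over all measured genes. SSRP1, a subunit of the histone chaperone FACT, reached 5257 and 5113 counts in the libraries labelled Ad-Bmal1 and Ad-GFP (1.05, 1.01 to 1.09). NELFB, a pausing factor gene, had a ratio of 1.08 (1.04 to 1.13) and SUPT5H, an elongation factor gene, 1.05 (1.01 to 1.10). Under total counts the ratios were 1.03 for SSRP1, 1.06 for NELFB and 1.03 for SUPT5H. Each was thus still above 1, but the intervals of SSRP1 and SUPT5H then included 1.

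Other growth factors that bind heparin had ratios on both sides of 1. Of 19 listed genes 15 were measured, with 9 ratios below 1 and 6 above, beside 49.6% of all measured genes below. With the length trend removed, 8 were below 1 and 7 above. The median was -0.08 on the log2 scale, and -0.0037 with the length trend removed. None was past 2-fold, beside 1.74% of all measured genes at least 2-fold lower and 1.13% higher. At 1.2-fold 5 of the 15 were lower and 3 higher, beside 13.7% of all measured genes lower and 14.2% higher. CCN1, a matricellular factor gene, was the most abundant at 32388 and 28616 counts in the libraries labelled Ad-Bmal1 and Ad-GFP (1.16, 1.14 to 1.18). MDK, which encodes midkine, was at 1.04 (1.00 to 1.08) and TGFB1 at 0.809 (0.772 to 0.848). HGF, PTN and FGF7 had 0 counts in both libraries.

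Nucleolin, which at the cell surface has been described as a receptor of HDGF, and genes of heparan sulfate, the sugar chain HDGF binds, had a median log2 ratio of 0.23 over 13 measured genes. Ratios were above 1 for 10 of them and below for 3, beside 49.6% of all measured genes below. Of the 13, 5 were at least 1.2-fold higher and 2 lower, beside 14.2% of all measured genes higher and 13.7% lower. NCL, the nucleolin gene, reached 13531 and 11593 counts in the libraries labelled Ad-Bmal1 and Ad-GFP (1.19, 1.17 to 1.22). HSPG2, which encodes the basement membrane proteoglycan perlecan, reached 7820 and 3616 counts in the libraries labelled Ad-Bmal1 and Ad-GFP. It was the listed gene past 2-fold at 2.21 (2.13 to 2.30), or 1.97 with the length trend removed. Over all measured genes 1.13% were at least 2-fold higher and 1.74% at least 2-fold lower. The cell surface proteoglycan genes SDC4 (0.733, 0.716 to 0.751) and SDC3 (0.760, 0.720 to 0.802) were the 2 lower at 1.2-fold. NCL, SDC4 and SDC3 were chosen after their values were seen.

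**Figure D5:**
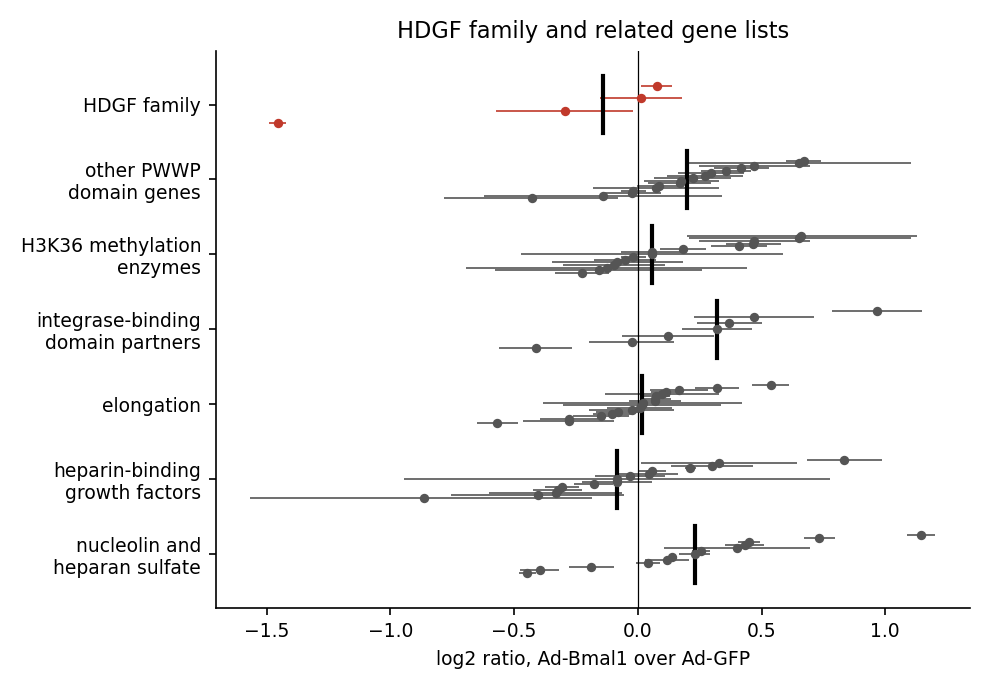
Log2 ratio of the library labelled Ad-Bmal1 over the library labelled Ad-GFP for measured members of the HDGF family (red) and of 6 related gene lists (grey), with exact 95% counting intervals. Thick bars are list medians, from -0.14 for the HDGF family and -0.08 for heparin-binding growth factors to 0.32 for partners of the integrase-binding domain, and the lowest gene outside the family is FGF5 at a ratio of 0.550.

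Marker genes of cell types were summed in each library. Epithelial genes summed to 1895 CPM in the library labelled Ad-Bmal1 and 2099 CPM in the library labelled Ad-GFP. All 5 measured of 6 listed were below a ratio of 1, beside 49.6% of all measured genes, with a median of -0.14. With the length trend removed all 5 stayed below 1, and the median was -0.077. KRT18, which overlaps KRT8 on the other strand, was lowest at 0.667 (0.638 to 0.698). Proximal tubule genes summed to 1177 CPM and 970.4 CPM in the libraries labelled Ad-Bmal1 and Ad-GFP, with 6 of 13 measured and a median of 0.19. Fibroblast genes summed to 101 CPM and 79.5 CPM in those libraries, with 4 of 8 measured and a median of 0.29. COL1A1 made up 84.8 and 63.4 CPM of these sums and had a ratio of 1.34 (1.24 to 1.44). DCN went the other way at 0.716 (0.542 to 0.944), and the intervals of the other measured fibroblast genes included 1. Blood cell genes summed to 20.8 and 21.7 CPM, nearly all of it CSF1R (0.962, 0.838 to 1.10), and endothelial genes to 0.606 and 1.53 CPM, with TIE1 at 7 and 28 counts (0.256, 0.0943 to 0.599), in the libraries labelled Ad-Bmal1 and Ad-GFP. Their part in the HDGF difference was not tested.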

How the data were processed

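RNA from HK-2 cells was selected for polyadenylation and read in pairs, 150 bp from each end, per the labels' protocols. The authors deposited raw counts per gene with Ensembl identifiers, and HISAT2 with GRCh38 is named per the submitters' processing notes. Which counter and gene annotation were used, and whether strand was considered, is not given in the sources used here. The labels name HK-2 for both libraries but spell the name out differently, and both were taken as that line without a check.

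Groups came from the sample titles, with 1 library each. TMM scaling was computed with edgeR 4.0.16 (R 4.3.3); its factor was 0.988 in the library labelled Ad-Bmal1 and 1.01 in the library labelled Ad-GFP, and 1 CPM was worth 19.8 and 20.3 counts in them. A single library per group leaves nothing to estimate spread from, so the quasi-likelihood test of edgeR could not be fitted. Ratios have exact 95% conditional binomial (Clopper-Pearson) intervals, computed in Python 3.11.15 with scipy 1.17.1. The reads carry no molecular identifiers and may repeat a molecule, which the intervals leave out. A gene was measured at 1 CPM in at least 1 library. Coordinates and lengths are from GENCODE v29, which held 99.55% of identifiers, and promoters from RefSeq, where all 4 members matched.

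The members and lists were chosen with earlier results of these data known. Genes named are the members, overlapping or differing neighbours, up to 4 per member, list members past 2-fold or else the 3 most abundant, the 5 genes most like HDGF, and BMAL1. Other genes named, KMT2A, NCL, SDC3, SDC4, MRPL24 and those cited as present or absent among them, were chosen after their values were seen. The calls were also run on simulated counts with counting error alone, the same error that the intervals assume. That run checks the computation and cannot show how often cultures differ without a cause. The alternatives tried were scaling by total counts, by the size factors of DESeq2 1.42.0 or by upper quartile, library totals that leave out mitochondrial genes and the top 20 by abundance, other filters and folds, thinning of the deeper library, and removal of trends on transcript length or, added after seeing the data, GC content.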

Additional observations from a re-analysis of the deposited data

How the results depend on the processing

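HDGF stayed lower in the library labelled Ad-Bmal1 under every alternative run, with ratios from 0.356 under total counts to 0.372 with the length trend removed, and adding pseudogene counts left it at 0.365. HDGFL3 had ratios from 0.731 to 0.815 and HDGFL2 from 1.03 to 1.08. PSIP1 lay between 0.986 and 1.01, on either side of 1. The number of genes at least 2-fold lower was 230, and it was 382 with no filter, 38 at 10 CPM, 648 at 1.5-fold and 20 at 4-fold. The number at least 2-fold higher was 149, and it was 292, 21, 583 and 12 under the same settings. Genes at least 1.2-fold lower numbered 1809, and 1169 at 10 CPM, where 8372 of 13231 genes were tested. These settings change the number of genes tested, which was 22827 with no filter, or the fold asked for. With the median coding transcript length, which counts short fragments annotated for HDGFL2, the HDGF share of the family per kb was 43.9% in the library labelled Ad-Bmal1 and 69.3% in the library labelled Ad-GFP. List medians changed sign for lysine 36 enzymes, at -0.05 with the length trend removed, and for elongation factors, from -0.02 to -0.0019 under 3 alternatives. No paired analysis was possible because each group has 1 library, and leaving a library out leaves no comparison. With 196 to 246 counts, HDGFL3 is the member that depth limits most.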
